A study of Mus musculus with 23 samples.

Results

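The 39 genes described here are members of the cell cycle and proliferation machinery, chosen by name and matched to the Ensembl gene IDs of the count tables through their mouse symbols. All 39 were found among the 55487 gene IDs. They comprise 5 G1 cyclins and kinases, 4 genes of the G1/S transition, 5 genes of the G2/M control (cyclins, their kinase and a transcription factor), 8 genes of replication licensing and the replication clamp, 4 genes of nucleotide synthesis and 13 genes of mitosis. The question put to them was how they differ between the 4 groups of the study and between soma cultures of different replicate number, as a readout of dividing, non-neuronal cells.

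The cells were dissociated from hippocampi of C57Bl/6 mouse pups at postnatal day 1 and grown in microfluidic chambers, with cell bodies on one side and axons crossing to the other. Every culture, controls included, received magnetic nanoparticles at 5 µg/ml. Stretched cultures were exposed to a gradient of 50 T/m between day in vitro (DIV) 1 and DIV 6, whereas control cultures had a null gradient. RNA came either from the axonal side, labelled as a pure axonal preparation, or from the soma side, labelled as the total cell culture. There were 5 libraries of control axons, 6 of stretched axons, 6 of control somata and 6 of stretched somata. No genotype other than the strain is given. The labels name no drug against dividing cells, and 1 additive of the medium is given by its concentration alone. The labels do not say whether replicates were separate animals or cultures, so p-values measure only the spread between these samples.

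Total counts ran from 16369153 to 43048953 per library, and 3 counts, the floor used here, corresponded to 0.0697 to 0.183 CPM, that is, counts scaled to a common library total. Genes with at least 1 count numbered 22452 to 24575 in somata but 4263 to 10242 in axonal libraries. In the soma libraries, 10 markers of postmitotic neurons summed to 4978 to 5981 CPM and 10 astrocyte markers to 5328 to 14864 CPM, so the soma side held RNA of both. The axonal libraries held 5802 to 29101 CPM of astrocyte markers and 1149 to 4592 CPM of neuronal markers, with CPM scaled separately in axons and somata. Soma libraries fell apart in 2 further ways. On the first principal component (53.2% of the variance), control soma 4 lay at 19.2, within the stretched libraries at 9.98 to 25.95 and away from the other 5 controls at -31.38 to -21.52. By the Y-linked gene Eif2s3y, libraries numbered 1, 2, 3 and 8 had 24.7 to 28.7 CPM and libraries numbered 4, 5 and 6 had 5.39 to 13.2 CPM, with 3 control and 3 stretched libraries on each side. These are called libraries with high and low Eif2s3y, a split made from the data and not from the labels.

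A dividing cell moves through G1, DNA replication in S phase, G2 and mitosis. D-type cyclins with Cdk4 and Cdk6 drive G1, E2F factors then switch on replication and nucleotide synthesis genes, and B-type cyclins with Cdk1 bring about mitosis, which ends when Cdc20 directs their destruction. Mature neurons have left the cycle, whereas astrocytes, microglia and progenitors in a postnatal hippocampal culture can still divide. The genes of G2 and mitosis are transcribed late in the cycle from promoters that often carry CCAAT boxes, bound by NF-Y, and the cell cycle homology region (CHR), bound by the MuvB complexes, while E2F sites are typical of S-phase genes.

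The promoter sequences below are the 250 bases before the annotated start of the 6 members that differed by replicate number in the soma cultures, and of Rrm2, the member of nucleotide synthesis that went the other way between the 2 sets of libraries. They are from RefSeq (GRCm38.p6), written 5′ to 3′ on the gene's own strand. Capitals mark CCAAT and TTTGAA, the core letters of the CCAAT box and of the CHR, on either strand (ATTGG and TTCAAA on the other), with overlapping matches run together.
Ccnb1 (ENSMUSG00000041431), cyclin B1, chr13:100786487-100786736, minus strand: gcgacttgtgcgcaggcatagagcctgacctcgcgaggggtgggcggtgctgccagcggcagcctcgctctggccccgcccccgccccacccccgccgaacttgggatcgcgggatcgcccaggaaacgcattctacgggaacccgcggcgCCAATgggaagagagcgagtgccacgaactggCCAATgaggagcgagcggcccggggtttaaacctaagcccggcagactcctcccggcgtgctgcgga
Cdk1 (ENSMUSG00000019942), the mitotic kinase, chr10:69352913-69353162, minus strand: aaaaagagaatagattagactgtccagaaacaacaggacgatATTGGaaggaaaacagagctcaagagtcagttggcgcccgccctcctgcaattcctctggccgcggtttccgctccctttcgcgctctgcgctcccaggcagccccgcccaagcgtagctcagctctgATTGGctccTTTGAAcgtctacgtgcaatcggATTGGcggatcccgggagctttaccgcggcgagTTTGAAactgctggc
Cdc20 (ENSMUSG00000006398), activator of the anaphase-promoting complex, chr4:118437344-118437593, minus strand: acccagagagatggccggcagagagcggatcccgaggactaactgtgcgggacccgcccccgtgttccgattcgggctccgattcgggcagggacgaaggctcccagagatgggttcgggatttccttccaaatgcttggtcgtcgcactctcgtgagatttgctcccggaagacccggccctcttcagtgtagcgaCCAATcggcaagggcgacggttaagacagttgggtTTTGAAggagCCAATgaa
Ube2c (ENSMUSG00000001403), the ubiquitin-conjugating enzyme of that complex, chr2:164769679-164769928, plus strand: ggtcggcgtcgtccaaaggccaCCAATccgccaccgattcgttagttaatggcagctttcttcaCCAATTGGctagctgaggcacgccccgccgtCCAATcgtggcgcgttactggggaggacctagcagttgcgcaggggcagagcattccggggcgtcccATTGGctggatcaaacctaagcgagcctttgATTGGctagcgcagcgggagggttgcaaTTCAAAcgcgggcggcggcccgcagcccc
Plk1 (ENSMUSG00000030867), polo-like kinase, chr7:122159185-122159434, plus strand: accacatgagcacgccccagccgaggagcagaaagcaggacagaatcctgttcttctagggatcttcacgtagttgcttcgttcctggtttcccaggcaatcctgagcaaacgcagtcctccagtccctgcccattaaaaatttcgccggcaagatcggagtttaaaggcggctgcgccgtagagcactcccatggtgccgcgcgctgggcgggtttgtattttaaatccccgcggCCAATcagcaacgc
Prc1 (ENSMUSG00000038943), a microtubule bundler of the central spindle, chr7:80294201-80294450, plus strand: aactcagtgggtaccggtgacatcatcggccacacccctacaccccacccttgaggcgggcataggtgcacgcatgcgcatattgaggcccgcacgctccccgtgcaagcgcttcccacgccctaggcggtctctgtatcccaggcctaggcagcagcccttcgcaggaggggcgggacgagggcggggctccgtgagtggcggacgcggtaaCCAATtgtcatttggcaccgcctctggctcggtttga
Rrm2 (ENSMUSG00000020649), the small subunit of ribonucleotide reductase, chr12:24708004-24708253, plus strand: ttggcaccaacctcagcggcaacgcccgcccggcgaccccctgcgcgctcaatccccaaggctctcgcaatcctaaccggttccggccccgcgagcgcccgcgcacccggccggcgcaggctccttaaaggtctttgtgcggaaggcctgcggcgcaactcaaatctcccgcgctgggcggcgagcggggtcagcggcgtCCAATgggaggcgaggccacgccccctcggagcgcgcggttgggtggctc

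Each of these 7 windows held at least 1 CCAAT match, with 6 in Ube2c, 3 in Cdk1, 2 in Ccnb1 and in Cdc20, and 1 in Plk1, in Prc1 and in Rrm2. The CHR letters were found in Cdc20 (18 bases before the start), Ube2c (29 bases) and Cdk1 (71 and 15 bases). A promoter window was at hand for 32 of the 39 members. Of the 15 windows of G2/M and mitosis members, 14 (93.3%) held a CCAAT box and 10 (66.7%) held it more than once, against 34.5% and 10.5% of the windows of 27025 genes. Of the 11 windows of replication and nucleotide members, 8 (72.7%) held one and 5 (45.5%) more than one. The CHR letters were in 6 of the 15 (40%) and 1 of the 11 (9.09%), against 16.3% of all windows. Of 2 E2F motifs searched on both strands, TTTCCCGC was in 2 of the 11 (18.2%) and in 0.929% of all windows. The other, TTTGGCGC, was in 2 of the 11 and in 0.437% of all windows. Both were in 0 of the 15 windows of G2/M and mitosis members. A match of letters is a description of these windows and not evidence of binding.

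All 39 members were above 3 counts in every soma library. Per kilobase of the longest transcript, the highest mean level over the 12 soma libraries was that of Cdk4, the G1 kinase, at 98.9 CPM per kb. Ccnd2 (63.2 CPM per kb), Rrm2 (47.8), Pcna, the replication clamp (45.8), and Ccnd1 (36.8) came next. The mitotic genes were lower, from 12.3 CPM per kb for Cdc20 and 11.2 for Ube2c down to 1.55 for Mki67, the proliferation antigen Ki-67, and 1.04 for the kinetochore motor Cenpe. Cdk6 (0.464 CPM per kb) and Foxm1, a transcription factor of G2/M genes (0.646), were lowest.

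The soma libraries differed most, among these genes, in the G2/M and mitosis members, and they did so by library number. In the 6 libraries with high Eif2s3y, the 18 G2/M and mitosis members summed to 497 to 558 CPM in control somata and 349 to 510 CPM in stretched somata. In the 6 libraries with low Eif2s3y they summed to 275 to 333 CPM in control and 233 to 250 CPM in stretched somata. The mean was 1.74 times as high in the libraries with high Eif2s3y, and the ratio was 1.73 within control and 1.75 within stretched somata. The 12 replication and nucleotide members did not share this, with a ratio of 0.891. In bulk RNA, fewer dividing cells and less RNA per cell cannot be told apart.

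**Figure D1:**
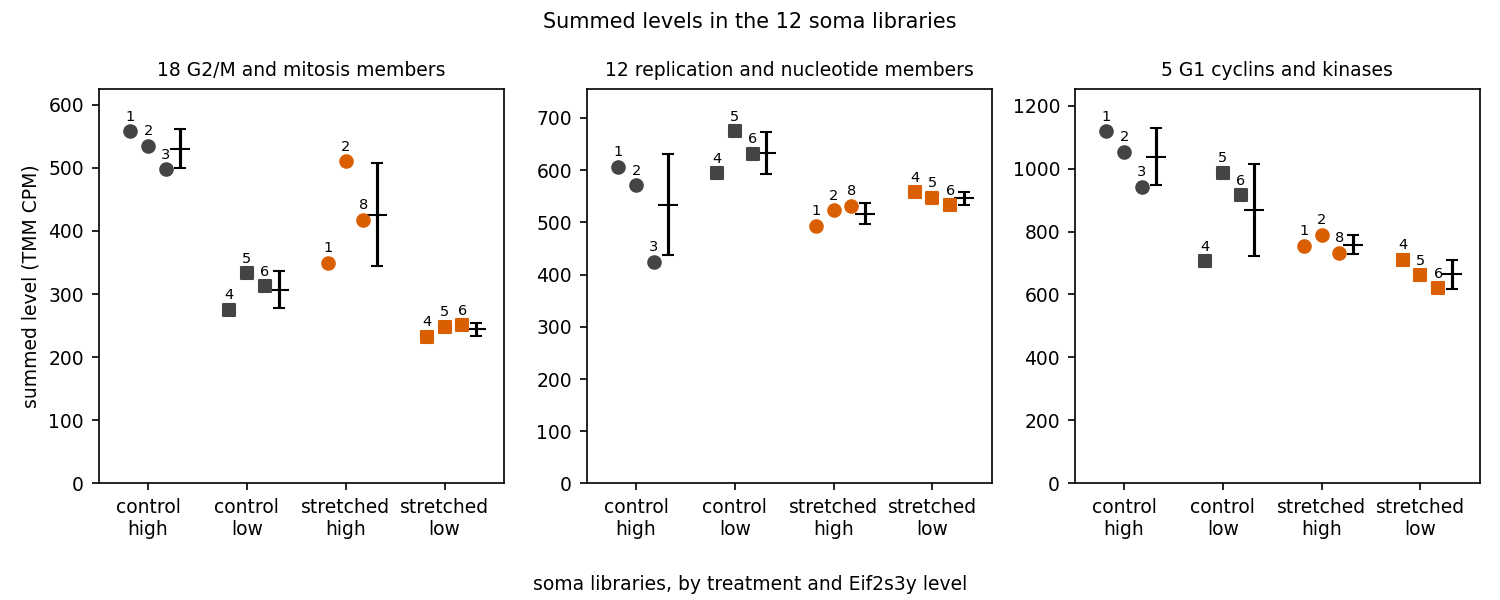
Summed TMM-normalized CPM (vertical axis) of 18 G2/M and mitosis members, 12 replication and nucleotide members and 5 G1 cyclins and kinases in the 12 soma libraries, by treatment and Eif2s3y level (horizontal axis); points are libraries with their replicate numbers, and bars are the mean ± SD (n = 3). The G2/M and mitosis sums of control somata were 497 to 558 CPM with high Eif2s3y and 275 to 333 CPM with low Eif2s3y, without overlap.

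Cyclin B1 shows the pattern gene by gene. Ccnb1 stood at 61.8, 69.8 and 69.8 CPM in control soma 1, 2 and 3, and at 28.0, 29.1 and 31.3 CPM in control soma 4, 5 and 6. In stretched somata it was 40.1, 76.3 and 46.9 CPM in replicates 1, 2 and 8, and 25.4, 23.2 and 24.6 CPM in replicates 4, 5 and 6. All 6 libraries with high Eif2s3y lay above all 6 with low Eif2s3y. In a fit with treatment as the other term, Ccnb1 was higher by 1.17 (SE 0.13) on the log2 scale in the libraries with high Eif2s3y (edgeR quasi-likelihood test, adjusted p = 1.4e-05). Its partner Cdk1 was higher by 0.81 (SE 0.13, adjusted p = 0.000584), with 25.0 to 47.8 CPM against 16.7 to 26.6 CPM, so the sets overlapped. Ccnb2, the second B-type cyclin, was higher by 1.10 (SE 0.14) and Ccna2, the S and G2 cyclin, by 0.70 (SE 0.17). Foxm1 was the exception among the 5 G2/M members, at -0.01 (SE 0.24).

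Of the 13 mitosis members, 9 were higher in the libraries with high Eif2s3y. Ube2c rose most, with 47.0, 44.2 and 41.2 CPM in control soma 1, 2 and 3 against 13.8, 26.9 and 16.7 CPM in control soma 4, 5 and 6. In stretched somata Ube2c was 20.3, 27.2 and 25.3 CPM in replicates 1, 2 and 8 against 10.1, 11.7 and 11.2 CPM in replicates 4, 5 and 6. Within each treatment the sets did not overlap, and the difference was 1.17 (SE 0.14, edgeR adjusted p = 3.8e-05). Cdc20 (1.08, SE 0.14) and Plk1, a kinase of mitotic entry and spindle assembly (1.08, SE 0.14), followed. Prc1 (0.84, SE 0.10), the decatenating topoisomerase Top2a (0.79, SE 0.10), the spindle-pole kinase Aurka (0.78, SE 0.13) and the checkpoint kinase Bub1b (0.71, SE 0.13) were higher too. The kinetochore proteins Cenpf (0.56, SE 0.11) and Cenpe (0.54, SE 0.15) had the smallest called differences, and Cenpe lost its call without control soma 1, stretched soma 2 or stretched soma 5 (adjusted p up to 0.073). Mki67 was not called, with 11.2 to 22.4 CPM against 12.3 to 18.0 CPM (0.23, SE 0.16, adjusted p = 0.37). Aurkb, Bub1 and Birc5 did not pass either.

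In all, 17 of the 39 members were called, 14 higher and 3 lower in the libraries with high Eif2s3y. Over all 15632 genes tested, 13.3% were called, 7.13% higher and 6.17% lower. The 3 lower members were Ccne2, a cyclin of the G1/S transition (-0.61, SE 0.15), Cdc6, which loads the replicative helicase (-0.60, SE 0.18), and Rrm2 (-0.49, SE 0.09). Rrm2 was 66.8 to 100.7 CPM with high and 109 to 143 CPM with low Eif2s3y, and the sets did not overlap. The call of Cdc6 was lost when any 1 of 6 libraries was left out (control soma 2, 3 or 6, or stretched soma 1, 2 or 4, adjusted p up to 0.0883). None of the 6 Mcm helicase subunits was called, nor Pcna (57.6 to 77.9 CPM against 66.0 to 85.3 CPM, -0.16, SE 0.09), Tyms or Rrm1. Mcm2 was 22.9 to 39.9 CPM against 31.3 to 48.2 CPM (-0.24, SE 0.13, adjusted p = 0.253). Among the G1 genes Ccnd2, a D-type cyclin, was higher (0.55, SE 0.09, adjusted p = 0.000497), while Ccnd1 differed by 0.03 (SE 0.13).

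The difference was present within each treatment. In the 6 control soma libraries alone, 8 members were higher and 0 lower, where 1.91% of all genes were higher. In the 6 stretched soma libraries alone, 12 were higher and 1 lower, where 4.15% of all genes were higher and 2.48% lower. Without control soma 4 the count over both treatments was 17, where 13.5% of all genes were called.

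**Figure D2:**
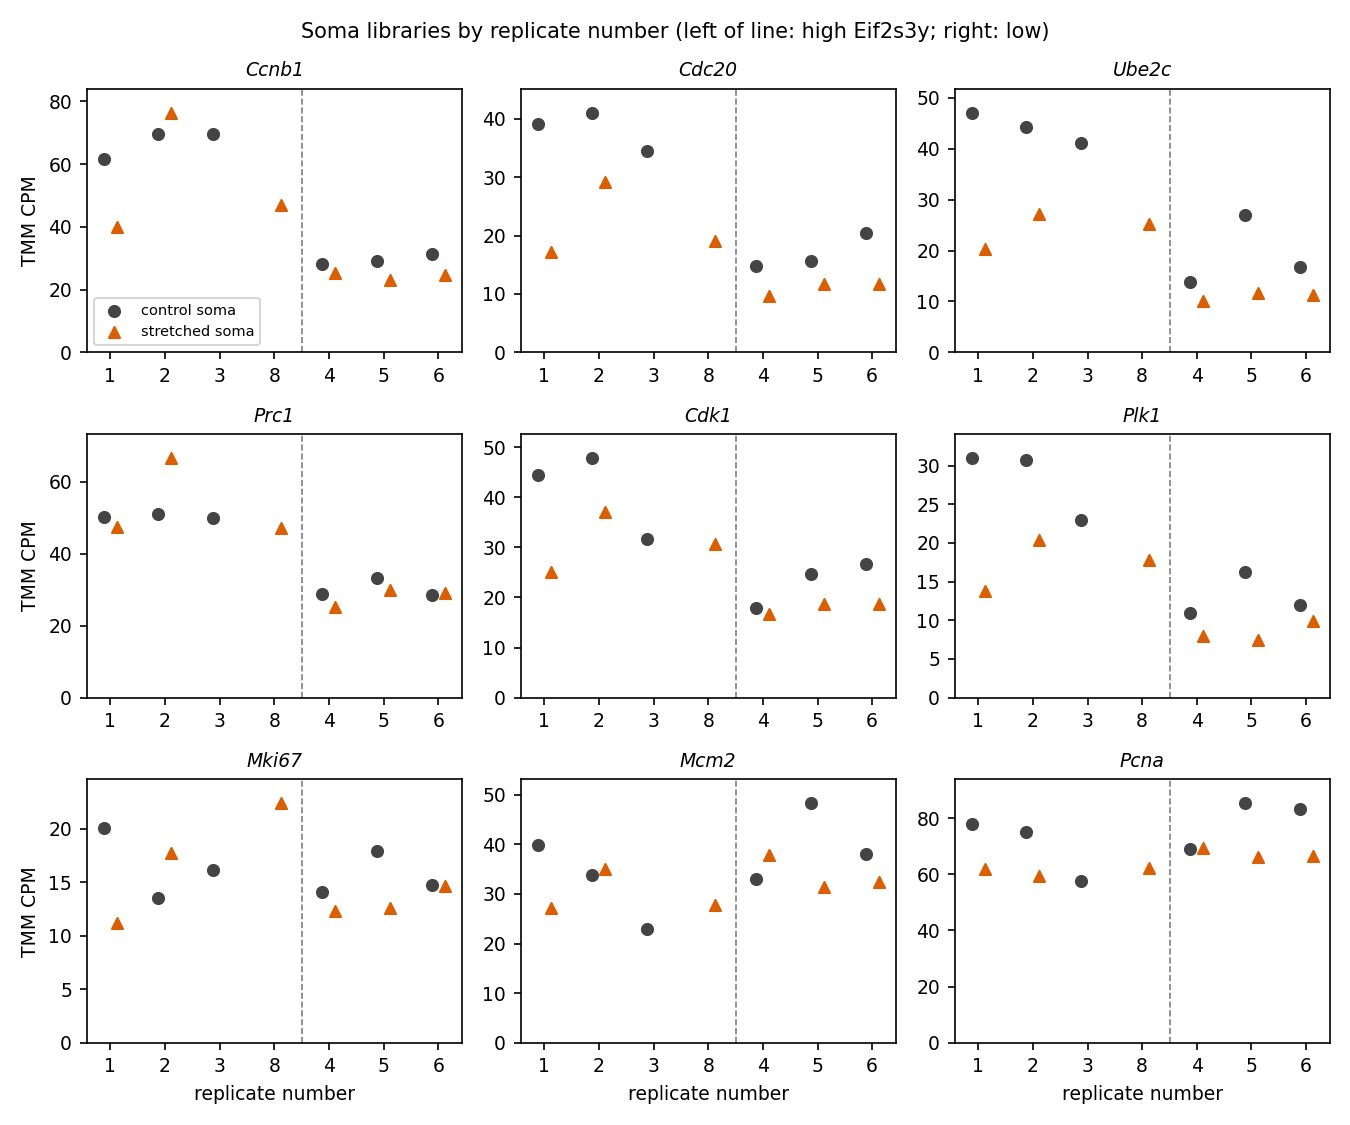
TMM-normalized CPM (vertical axes, from 0) of 9 members in each soma library by replicate number (horizontal axis); circles are control and triangles stretched somata, and the dashed line parts libraries with high (left) from low (right) Eif2s3y. Ccnb1 was 40.1 to 76.3 CPM left of the line and 23.2 to 31.3 CPM right of it, whereas Mki67, Mcm2 and Pcna overlapped.

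The replicate numbers of the labels gave another test, which used no Eif2s3y values but was not independent of that split. Numbers 1 and 2 had high Eif2s3y and numbers 4, 5 and 6 had low Eif2s3y in both treatments. A difference by number therefore largely reads the same division of the same libraries again. Over the 10 soma libraries whose number occurred in both treatments (1, 2, 4, 5 and 6), 6 of 39 members differed by number beyond the spread left by number and treatment, where 0.969% of 15584 genes did. These were Ccnb1 (edgeR F test, adjusted p = 0.00807), Cdc20 (0.0185), Ube2c (0.0191), Prc1 (0.0268), Cdk1 (0.0365) and Plk1 (0.0445), all of them G2/M or mitosis genes. Prc1 illustrates it, at 50.2 and 51.1 CPM in control soma 1 and 2 against 28.6 to 33.1 CPM in control soma 4, 5 and 6, and at 47.5 and 66.5 CPM against 25.2 to 30.0 CPM in stretched somata. None of the 12 replication and nucleotide members and none of the 9 G1 and G1/S members was called. The count was 0 without replicate 2, 1 without replicate 6 and 2 without replicate 1, where 0.109%, 0.23% and 0.255% of all genes were called. It was 13 with no filter on low counts, where 4.78% of 31970 genes with any count were, a wider set than the 15584 above.

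Lists of other cycle genes were set beside the members. Of 58 other G2 and mitosis genes, 22 were higher and 1 lower in the libraries with high Eif2s3y, with a median of 0.33, where 7.13% of all genes were higher. Of 40 other S-phase genes, 0 were higher and 2 lower, with a median of 0.00, and the share lower was near the 6.17% of all genes. All genes tested had a median of -0.01.

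Markers of some other cell types also differed between these libraries. Of 10 astrocyte markers, 9 were higher in the libraries with high Eif2s3y (Gfap, the astrocytic filament protein, by 1.04, and the water channel Aqp4 by 1.18), and their sum was 10632 to 14864 CPM against 5328 to 6687 CPM. Of 9 neural progenitor markers tested, 6 were higher (Sox2 by 1.07), with sums of 1230 to 1818 CPM against 753 to 1352 CPM. Ependymal markers were higher in 4 of 6, with 72.2 to 102 CPM against 37.0 to 60.4 CPM. Microglial markers were higher in 1 of 9 tested (C1qa), and summed to 31.7 to 87.8 CPM against 33.0 to 56.5 CPM. Oligodendrocyte lineage markers had 1 higher and 1 lower of 6 tested, endothelial markers 0 higher and 1 lower of 7, and fibroblast and mural markers 0 called of 8 (1 at an unadjusted p under 0.05). Among 10 neuronal markers 1 was higher and 1 lower. No defining marker of astrocytes, progenitors, ependyma or microglia was at 0 in all soma libraries, whereas Sox10, an oligodendrocyte lineage marker, was at 0 in all 12. The part of these cells in the result was not tested.

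**Figure D3:**
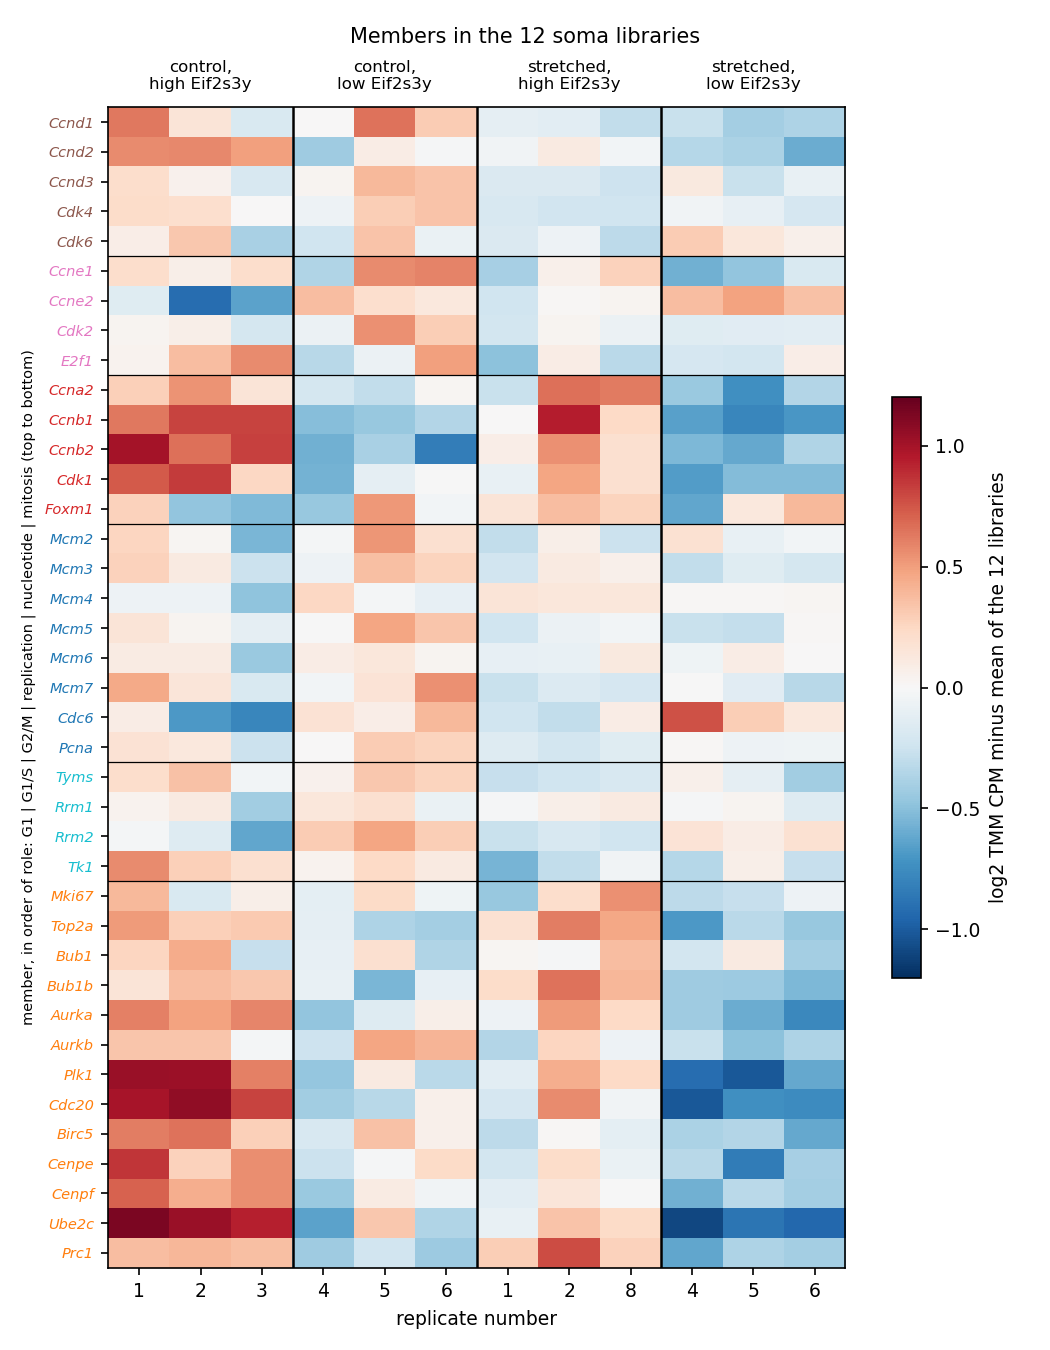
Level of each of the 39 members (rows, in order of role) in the 12 soma libraries (columns, by treatment, Eif2s3y level and replicate number), as log2 TMM-normalized CPM minus the gene's mean over the 12 libraries (colour). Ccnb1, Ccnb2, Plk1, Cdc20 and Ube2c are above their mean in control soma 1, 2 and 3 and below it in stretched soma 4, 5 and 6, while the Mcm rows show no such division.

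Stretch was then compared over all 12 soma libraries. Of the 39 members, 6 were called and all 6 were lower in stretched somata: Ccnd1, Cdk4, Birc5, Tyms, Mcm7 and Tk1. That is 15.4% of the members, against 25.1% of 15632 genes called, 13.9% of them lower, so the share of members called lower lay near that of all genes. The fold changes of 33 of 39 members were negative, with a median of -0.29 against -0.03 for all genes. The summed level of all members was 2001 ± 251 CPM in control and 1617 ± 157 CPM in stretched somata (SD, n = 6 each), a ratio of 0.808, or 0.778 without control soma 4. Control and stretched values overlapped for each of the 39 members. The controls here include control soma 4, which lay among the stretched libraries on the first principal component. The share of all genes that overlapped was not counted, so the overlap is not read as a trait of the members.

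Among the G1 genes, Ccnd1, the D-type cyclin that answers growth factors, was 117 to 210 CPM (median 157) in control and 100.4 to 124 CPM (median 110) in stretched somata. The 2 highest stretched libraries lay above the lowest control library, control soma 3, and the difference was -0.55 (SE 0.13, edgeR adjusted p = 0.0103). Its kinase Cdk4 was 193 to 255 CPM (median 233) against 171 to 196 CPM (median 175), a difference of -0.34 (SE 0.08, adjusted p = 0.0103). Ccnd2 was 287 to 578 CPM (median 478) against 255 to 416 CPM (median 340) and did not pass (-0.46, SE 0.17, adjusted p = 0.0602). With offsets for transcript length and GC content it was called, at -0.72 (adjusted p = 0.036). Both Ccnd1 and Cdk4 kept their call when each library was left out in turn. With those offsets, Cdk4 was at -0.11 (adjusted p = 0.363) and was no longer called. Shorter genes had lower fold changes over 15619 genes (Spearman's rho of 0.457 with length, across genes, which are not independent).

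Of the 12 replication and nucleotide members, Mcm7, Tyms and Tk1 were lower. Tyms, which makes thymidylate, was 23.3 to 30.2 CPM (median 28.0) in control and 17.8 to 24.7 CPM (median 20.5) in stretched somata (-0.39, SE 0.11, edgeR adjusted p = 0.0187). Tk1, the thymidine salvage kinase, was 6.78 to 9.75 CPM (median 7.63) against 4.46 to 6.90 CPM (median 5.40), a difference of -0.47 (SE 0.15, adjusted p = 0.0334). Mcm7, a subunit of the replicative helicase, was 42.0 to 69.7 CPM (median 53.1) against 37.9 to 47.3 CPM (median 42.0), at -0.39 (SE 0.12, adjusted p = 0.0289). With the length and GC offsets Tyms kept its call, while Tk1 (adjusted p = 0.159) and Mcm7 (0.125) were not called. Mcm7 was lost without control soma 1, 5 or 6 or stretched soma 1 or 6, Tk1 without control soma 1, 2 or 5 or stretched soma 1, 2, 4 or 6 (adjusted p up to 0.0701 and 0.0791), and Tyms without control soma 5 (0.0506). Mcm2 (-0.17, SE 0.15) and Pcna (-0.22, SE 0.10) did not pass, and Mcm6 and Rrm1 were at -0.02 and -0.00.

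Of the 18 G2/M and mitosis members only Birc5, which encodes survivin, a subunit of the chromosomal passenger complex, was called. It was 11.5 to 20.6 CPM (median 16.4) in control and 8.60 to 13.3 CPM (median 10.5) in stretched somata, at -0.60 (SE 0.16, edgeR adjusted p = 0.0153), and kept its call without any 1 library. Ube2c had a larger difference with a larger error (-0.84, SE 0.35, adjusted p = 0.0933), as did Cdc20 (-0.75, SE 0.32) and Plk1 (-0.68, SE 0.32). Ccnb1 (-0.29, SE 0.34), Cdk1 (-0.40, SE 0.25), Mki67 (-0.08, SE 0.17) and Top2a (-0.03, SE 0.23) were not called.

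With the Eif2s3y set as a second term, the fold changes stayed close and the errors of the G2/M and mitosis genes shrank. The number of members called was then 16, all lower, where 33.9% of all genes were called and 17.9% were lower. The 6 above were among them, and the other 10 were Ccnd2, Ccnd3, Cdk1, Aurka, Aurkb, Plk1, Cdc20, Cenpe, Cenpf and Ube2c. Ube2c was now at -0.83 (SE 0.14, edgeR adjusted p = 0.00159), Cdc20 at -0.71 (SE 0.14, 0.00246) and Plk1 at -0.67 (SE 0.14, 0.0033). Ccnd2 was at -0.44 (SE 0.09, 0.00282) and Cdk1 at -0.39 (SE 0.13, 0.0298). Ccnb1 (-0.29, SE 0.13, 0.0852), Mki67 (-0.10), Top2a (-0.07) and Prc1 (-0.00) still did not pass. For Ube2c the stretched libraries lay below the control libraries within each set, at 20.3 to 27.2 against 41.2 to 47.0 CPM and at 10.1 to 11.7 against 13.8 to 26.9 CPM.

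**Figure D4:**
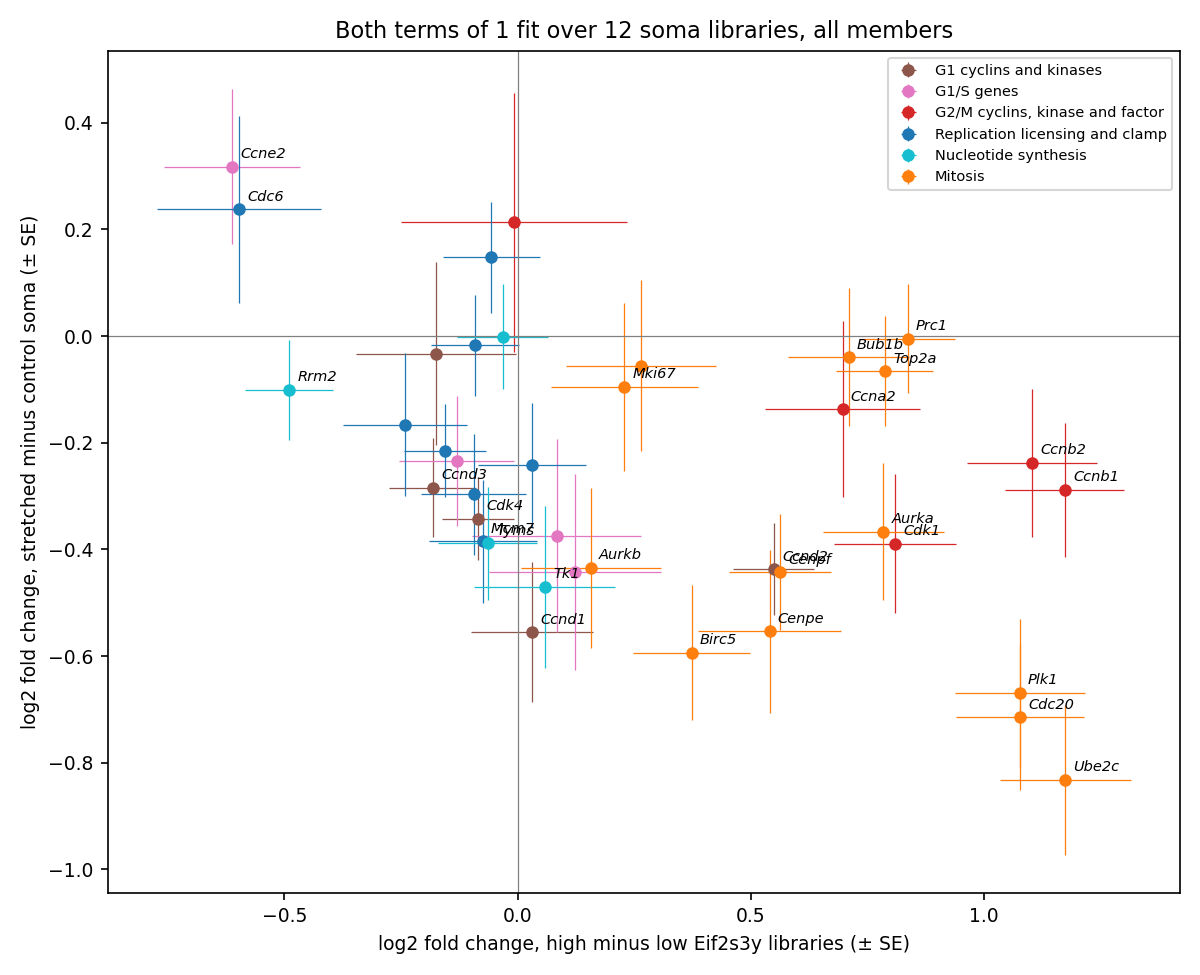
Log2 fold change of each of the 39 members in 1 fit over 12 soma libraries, for high minus low Eif2s3y (horizontal axis) and for stretched minus control (vertical axis), with SE bars and colours by role; named members passed adjusted p under 0.05 in either term, besides Mki67. Ube2c, Cdc20 and Plk1 are far right and lowest, Ccnb1 and Prc1 are far right with small stretch differences, and Ccnd1 is low with no difference between the sets.

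Within the 6 libraries with high Eif2s3y, 9 members were called, 8 lower (Ccnd2, Cdk4, Ccnb2, Plk1, Cdc20, Birc5, Cenpf and Ube2c) and 1 higher (Mcm4, 0.39, SE 0.12), where 29.2% of all genes were called. Within the 6 with low Eif2s3y, edgeR called 0 members and 0% of all genes, and 14 members had an unadjusted p under 0.05, as did 17.4% of all genes. That set holds control soma 4, and without it 18 members were called, all lower, where 27.5% of all genes were called. The difference in stretch effect between the sets was tested with 3 libraries per treatment and set, and edgeR called 0 members and 0% of all genes, so no difference was detectable at this size. Ccnb2 was the 1 member at an unadjusted p under 0.05 (-0.63, SE 0.23, adjusted p = 0.629), and Mcm4 was at 0.36 (SE 0.19). Over all soma libraries without control soma 4, 17 members were called, all lower, where 38.3% of all genes were called. Without control soma 5 only Ccnd1, Cdk4 and Birc5 were called, where 17.6% of all genes were. DESeq2 called 11 members and 4760 of 32870 genes with any count (14.5%). limma voom called 13 members and 5556 of 15632 genes that passed the filter (35.5%). All of these members were lower. The 2 shares rest on different sets of genes and were not compared.

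Lists of related genes were set beside the members. Of 27 cell-cycle inhibitors and exit genes, 12 were lower and 3 higher in stretched somata, with a median of -0.45, where 13.9% of all genes were lower and 11.2% higher. The largest were the CDK inhibitors Cdkn1c (-2.03, SE 0.41, edgeR adjusted p = 0.00575) and Cdkn2c (-1.31, SE 0.31, 0.0104), the antiproliferative gene Btg1 (-1.11, SE 0.20, 0.00448) and, higher, the pocket protein Rbl1 (1.40, SE 0.31, 0.00817). Of 40 other S-phase genes, 11 were lower and 0 higher, led by the licensing inhibitor Gmnn (-0.95, SE 0.21), the chromatin assembly subunit Chaf1a (-0.92, SE 0.26), the exonuclease Exo1 (-0.68, SE 0.23) and the dUTPase Dut (-0.57, SE 0.12). Of 58 other G2 and mitosis genes, 6 were lower and 0 higher, no larger a share lower than over all genes. Among them were Cdca5 (-0.64, SE 0.18), Ndc80 (-0.61, SE 0.19), Smc4 (-0.47, SE 0.16) and Spc25 (-0.43, SE 0.11). Among 10 astrocyte markers 0 were called for stretch (1 at an unadjusted p under 0.05). Among 9 microglial markers tested 2 were lower, with sums of 42.6 to 87.8 CPM in control and 31.7 to 39.0 CPM in stretched somata, and among 9 progenitor markers 1 was lower (885 to 1818 against 753 to 1293 CPM). Neuronal markers had 2 higher and 3 lower of 10. Fibroblast and mural markers had 1 higher and 1 lower of 8 tested, with 5 at an unadjusted p under 0.05. Oligodendrocyte lineage markers had 1 higher and 0 lower of 6 tested. Endothelial markers had 0 called of 7 tested and ependymal markers 0 of 6, with 2 of each at an unadjusted p under 0.05. The part of any of these cell types in the stretch result was not tested.

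Axonal libraries held the same genes unevenly. Between 8 and 27 members were above 3 counts per library, and a gene could be at 0 in one library and abundant in the next. Only Ccnd1 and Ccnd2 were counted in all 11. Ccnd2 was 5017, 3267, 1885, 554 and 1578 CPM in control axon 1, 2, 3, 5 and 7, and 1068, 1280, 1012, 3756, 1840 and 1617 CPM in stretched axon 1, 2, 4, 5, 6 and 8. Ccnd1 was 448, 1603, 251, 490 and 22.9 CPM in the control axons, and 0.0377, 1276, 267, 621, 162 and 488 CPM in the stretched axons, with 1 count in stretched axon 1. Rrm2 was counted in 10 libraries. Cdk4, Pcna, Prc1 and Ccnb1 were counted in 8, Ccnd3, Birc5, E2f1, Rrm1 and Top2a in 7, and Mcm4, Mcm6, Cenpf and Ube2c in 6. E2f1 was above 3 counts in 2 of its 7. Foxm1 was at 0 in all 11. Detection followed the level in somata: members of 100 CPM or more in somata were above 3 counts in 88.6% of gene and library pairs, those of 30 to 100 CPM in 49.2% and those of 10 to 30 CPM in 27.9%, against 72.2%, 45.3% and 25.8% over all genes of those levels. The 9 members below 10 CPM, with soma means of 3.00 to 9.28 CPM, were above 3 counts in 17.2% of pairs. Over all 23337 genes above 0 and below 10 CPM it was 4.36%. That range reaches down to genes near 0, so these shares are not of like levels and were not compared.

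**Figure D5:**
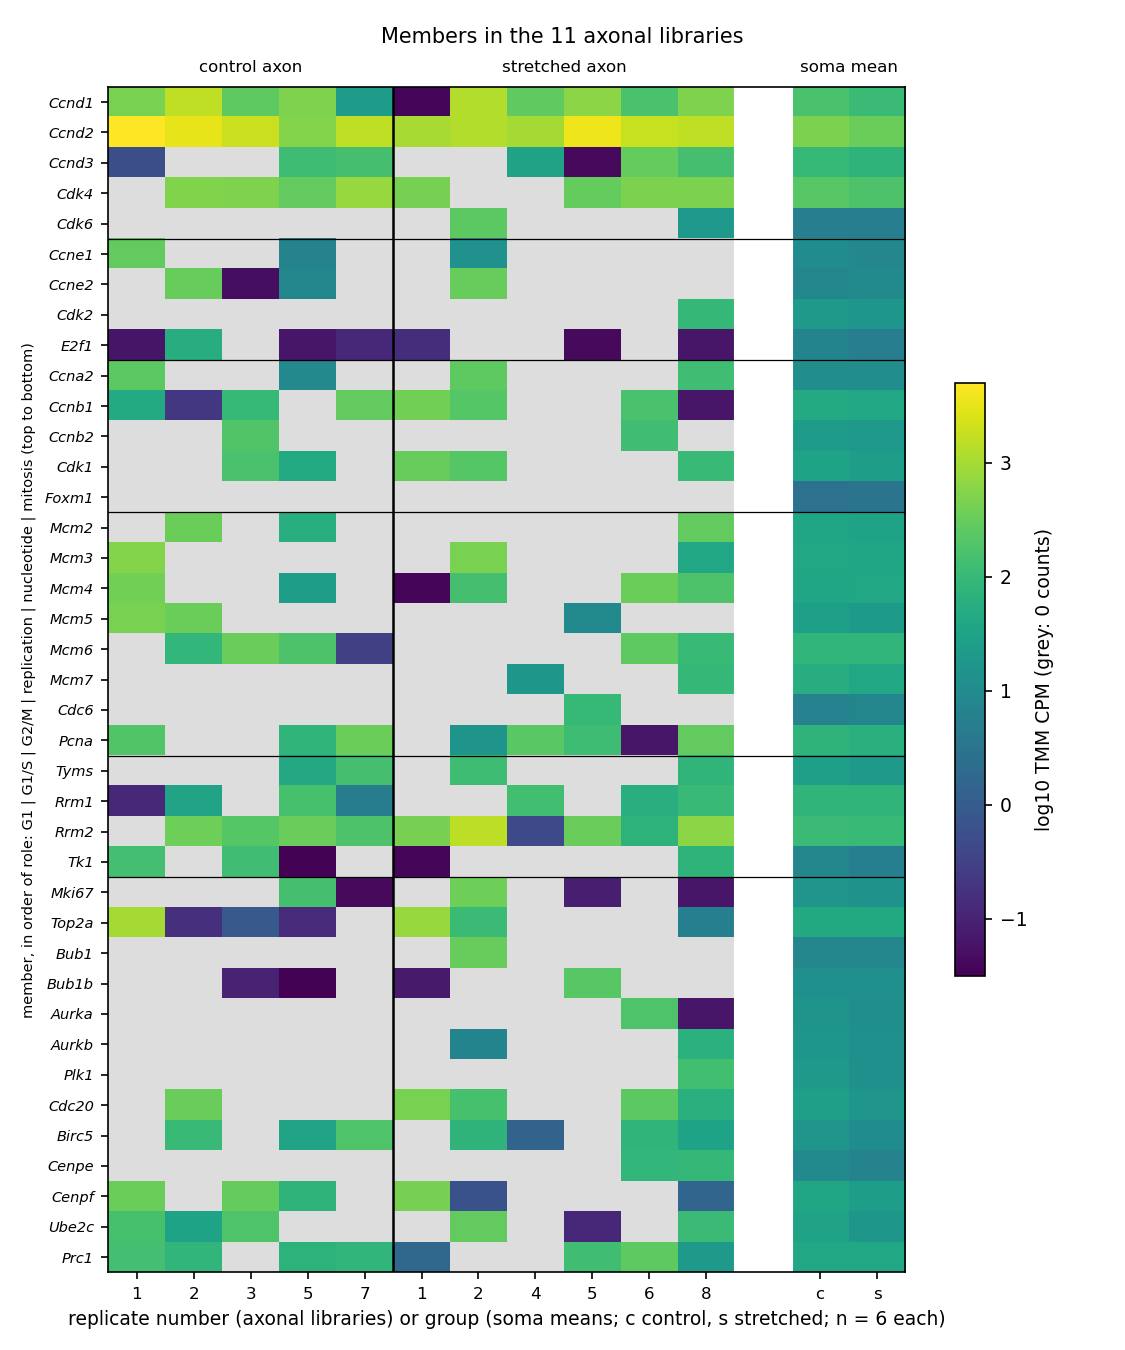
Level of each of the 39 members (rows, in order of role) in the 11 axonal libraries and, at the right, the mean of each soma group (columns), as log10 TMM-normalized CPM (colour), with grey for 0 counts; axons and somata were scaled separately. Ccnd2 is filled in all 11 axonal libraries, at 554 to 5017 CPM, Foxm1 is empty in all 11, and most mitosis rows are a patchwork.

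Stretched and control axons were compared for the 17 members that passed the filter on low counts, which were 4 G1, 5 replication and nucleotide and 8 G2/M or mitosis genes. None was called by edgeR (0 of 17, with 0% of 4947 genes called), and 0 had an unadjusted p under 0.05. Fold changes ran from -1.07 to 1.35. Ccnd2 differed by -0.48 (SE 0.47), Ccnd1 by -0.26 (SE 1.27), Ccnb1 by 0.59 (SE 2.61), Cdk1 by 1.35 (SE 3.00), Pcna by -0.18 (SE 2.48) and Top2a by -0.41 (SE 2.85). With errors of this size a difference was not detectable, and Mki67 and Mcm2 did not pass the filter. limma voom called 0, and DESeq2 called 3 of 38 tested. DESeq2 called 859 of 16409 genes with any count (5.23%), a wider set than the 4947 genes of edgeR. The 3 were Aurkb, Mcm7 and Cenpe, each at 0 in all 5 control axons and above 3 counts in 2 of 6 stretched axons.

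Against the somata of the same treatment, Ccnd2 was the 1 member higher in axons. It was higher by 1.94 (SE 0.46, edgeR adjusted p = 0.00468) in control cultures, where 0.856% of all genes were higher, and by 1.66 (SE 0.34, adjusted p = 0.00157) in stretched cultures, where 0.843% were. Both calls held when each library was left out in turn. Ccnd1 had positive values too (1.27, SE 0.73, and 1.37, SE 1.13) but was called only without control axon 7 (adjusted p = 0.0216) or without stretched axon 1 (0.0185), the library with 1 count. In control cultures 11 members were lower in axons, where 34.4% of all genes were. Of these, Cdk6, Cdk2, Foxm1, Mcm7, Cdc6, Bub1, Aurka, Aurkb, Plk1 and Cenpe were at 0 in all 5 control axons, and Bub1b had 2 counts in 1 library and 1 in another. Set against a floor of 3 counts over the group, counting error alone put Mcm7 (55.0 ± 10.6 CPM in control somata, SD, n = 6) at least 1980-fold lower. By that floor Plk1 was at least 743-fold and Foxm1 at least 100.5-fold lower, with axons and somata scaled separately. Bounds of this kind do not allow for genes missing from single axonal libraries. Mcm7 itself was above 3 counts in 2 of 6 stretched axons, at up to 90.9 CPM. In stretched cultures 2 members were lower, where 28.4% of all genes were, Foxm1 (at least 125-fold) and E2f1, which had 0 to 4 counts in the 6 stretched axons. That count was unsteady: 17 members were lower with the replicate number as a block, where 53.1% of all genes were called. Without stretched axon 1, 2, 5, 6 or 8, the members called, higher and lower together, numbered 5 to 7. In those fits 32.9 to 43.3% of all genes were called. Mki67, Top2a, Cdk1, Ccnb1, Pcna and Mcm2 were not called in either treatment, and for Mki67, Top2a and Mcm2 the value depended on single libraries. Mki67 was at 4495 and 5570 counts in control axon 5 and stretched axon 2 and at 0 to 2 counts in the other 9 axonal libraries. Without control axon 5 Mki67 was lower in control axons (adjusted p = 4.15e-06), without stretched axon 2 it was lower in stretched axons (0.000108), and without control axon 1 Top2a was lower in control axons (0.00195). Mcm2 was at 6322, 1758 and 4341 counts in control axon 2, control axon 5 and stretched axon 8 and at 0 in the other 8 axonal libraries. Without stretched axon 8, Mcm2 was lower in stretched axons (adjusted p = 8.63e-06). Astrocyte markers, at 5802 to 29101 CPM in these libraries, came with Ccnd2 and Ccnd1 in the axonal preparations, and their part was not tested.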

How the data were processed

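RNA was measured in 23 libraries. The authors deposited whole-number read counts for 55487 Ensembl gene IDs per library, followed by totals of uncounted reads (14.2 to 24.4% of reads), which were left out. Libraries were made from poly(A) RNA by a low-input method that adds molecular identifiers, per the labels' protocols. Whether the counts use those identifiers is not given in the sources used here. Per the submitters' processing notes, the build was mm10 and the tools included fastp 0.20.1, STAR 2.7.08a and HTSeq 0.13.5. Genes with near-identical copies or overlapping neighbours may be undercounted. Symbols were matched for 55141 IDs.

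Each comparison was fitted on its own libraries with edgeR 4.0.16 in R 4.3.3 (filterByExpr, TMM, robust quasi-likelihood test), with Benjamini-Hochberg adjustment over all genes tested and a threshold of 0.05. SE is the log2 fold change divided by the square root of F. CPM were TMM-scaled within somata and within axons. Soma libraries were parted at the widest gap in Eif2s3y. The fits were tested on simulated data. Alternatives were total counts only, RLE size factors, no filter, voom with quality weights in limma 3.58.1, the Wald test of DESeq2 1.42.0, the replicate number as a block, length and GC offsets (mgcv 1.9.3) and leaving out each library. Promoter windows had 250 bases, the first listed per gene. Floors cover counting error only.

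Always named were Mki67, Top2a, Cdk1, Ccnb1, Pcna, Mcm2, Ccnd1 and Ccnd2, then members called in a comparison, members counted in at least 6 of 11 axonal libraries, and up to 4 called genes per related list with the largest change. Marker genes named from cell type lists, and the members named only for an error or an alternative, were chosen after their values were seen. The members and lists were chosen with earlier results of these data known. The comparison of libraries with low Eif2s3y without control soma 4, the split within each treatment and the difference of the stretch effect between the sets were added after seeing the data.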

Additional observations from a re-analysis of the deposited data

Results flagged for a closer look

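Among the members counted in at least 6 axonal libraries and all members in somata, 110 gene and group pairs were looked at for a library apart from the others of its group, and 9 had one, 7 of 32 pairs in axons and 2 of 78 in somata. Chance gives about 1 in 20 for values without excess zeros, which the axonal pairs are not. In axons these were single high libraries: Ccnd2 at 3756 CPM in stretched axon 5 (others 1012 to 1840), Top2a at 993 CPM in control axon 1 (others 0 to 0.896) and at 778 CPM in stretched axon 1 (others 0 to 112), Cenpf at 428 CPM in stretched axon 1 (others 0 to 1.58), Mcm4 at 395 CPM in control axon 1 (others 0 to 24.9), Rrm1 at 153 CPM in control axon 5 (others 0 to 34.3) and E2f1 at 56.2 CPM in control axon 2 (others 0 to 0.129). In somata, Mcm6 was low in control soma 3 at 60.2 CPM (others 84.1 to 90.4) and Foxm1 was low in stretched soma 4 at 1.88 CPM (others 3.18 to 3.79).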

How the results depend on the processing

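The count of members called for stretch in somata, 6, was 6 with total counts only and with RLE size factors. The length and GC offsets also gave 6, where 15.4% of all genes were called, but not the same 6. Cdk4, Tk1 and Mcm7 lost their call there, and Ccnd2 was among those gained. The count was 3 with no filter, where 9.22% of 32870 genes with any count were called. It was 11 with DESeq2 (14.5% of the same 32870), 13 with limma voom (35.5% of 15632) and 16 with the Eif2s3y set as a covariate (33.9% of 15632). It was 0 within the libraries with low Eif2s3y and 18 there without control soma 4. Over the 12 fits that left out 1 library each it was 3 to 17, where 16.8 to 38.3% of all genes were called. For axons it was 3 with DESeq2 and 0 in every fit without 1 library. For axon against soma in control cultures it was 26 with limma voom, where 66.5% of all genes were called. Over leave-one-out fits it was 12 to 14, where 32.1 to 53.6% were. In stretched cultures it was 27 with limma voom, where 69.7% of all genes were called, and 3 to 7 over leave-one-out fits, where 28.7 to 43.3% were. The replicate number test gave 13 with no filter and 0 to 7 without 1 number. The library sets gave 8 in control somata alone, where 2.94% of all genes were called, and 15 to 18 without 1 library, where 9.33 to 13.5% were. Over all genes, 3929 were called for stretch in somata, against 2398 with the offsets, 1991 with offsets and block, 0 within low Eif2s3y and 6072 without control soma 4; DESeq2 called 859 in axons, where edgeR called 0. For axon against soma, 5196 genes (35.3%) were called in control and 4234 (29.3%) in stretched cultures. With no filter these were 10714 (35.5%) and 10931 (35.1%), and with DESeq2 10182 (33.7%) and 10064 (32.3%). With limma voom they were 9798 (66.5%) and 10084 (69.7%), and in stretched cultures the block gave 7687 (53.1%). The replicate number test called 151 genes, and 1529 with no filter. The ratio of summed levels was 0.833 with total counts only and 0.865 without the G1 cyclins and kinases. Calls that reversed direction were all in axons against somata, for members at 0 in 3 or more axonal libraries. With limma voom these were, in control cultures, Mcm2 (-6.37), Top2a (-5.87), Pcna (-5.03) and Mki67 (-8.17) and, in stretched cultures, Cdk1 (-5.42), Top2a (-6.79) and Mki67 (-7.03). Over the fits without 1 library, Top2a ran from -7.62 to 1.92 in control cultures, and Mki67 from -10.2 to 0.683 in control and from -9.39 to 1.62 in stretched cultures, where Mcm2 ran from -12.9 to 0.217. The cause was not tested.

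Same-numbered control and stretched soma libraries deviated together with correlations of 0.0906 to 0.237 over 5 pairs (mean 0.191, other pairs -0.0305), 2 of 5 matching best with their own number, so the numbers were not taken to pair the libraries. With the replicate number as a block, 11 members were called for stretch in somata, where 20.5% of all genes were. Of the 11, 5 were shared with the 6 (Tk1 was lost, at -0.53 and edgeR adjusted p = 0.0694). The block with the offsets called 10 members, where 12.7% of all genes were called. In stretched axons against somata the block gave 18, where 53.1% of all genes were called, with Mki67 reversed at -9.16. In control cultures it gave 12, where 35.9% of all genes were called.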
